A study of Mus musculus with 2 samples.

Results

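The expression of 9 chemokine genes was examined in the mouse aorta: Cxcl1, Cxcl2, Cxcl3, Cxcl5, Cxcl9, Cxcl10, Cxcl12 and Cxcl16 of the CXC family, and Cx3cl1, which encodes fractalkine. They were found by symbol among the 32285 genes of the deposited matrices, and all 9 were present. Single-cell RNA-seq was available for 2 libraries of aortic cells, 1 per group. The library called WT here came from ApoE-/- mice on a C57BL/6 background fed a Western diet. The EC-iCD45KO library came from mice of the same ApoE-/- background and diet in which tamoxifen had induced a deletion of CD45, the receptor tyrosine phosphatase encoded by Ptprc, in endothelial cells (ECs). The study asked how this deletion affects the endothelial-to-mesenchymal transition and lesions. The deleted part of Ptprc, the transgene that drives the deletion, whether the WT mice received tamoxifen, and the sex, age and number of mice in each library are not given in the sources used here. Cells were freed from the aortas with collagenase I, collagenase IV and Liberase, enriched on CD31 microbeads and taken through the 10x Genomics protocol. With 1 library per group there is no replicate error, so no test was made and no p-value is given. All intervals below are exact 95% intervals that cover counting error only.

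Chemokines are small secreted proteins that guide leukocytes along gradients and onto the vessel wall. CXC ligands with a Glu-Leu-Arg motif, among them Cxcl1, Cxcl2, Cxcl3 and Cxcl5, act on Cxcr2 and attract neutrophils, and their genes are classical NF-kB targets. Cxcl9 and Cxcl10 are induced by interferons and attract T and NK cells through Cxcr3. Cxcl12 retains leukocytes and progenitors through Cxcr4, whereas Cxcl16 and fractalkine are made as membrane-anchored proteins that can hold cells bearing Cxcr6 or Cx3cr1 and are released by the proteases Adam10 and Adam17.

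The promoters of Cxcl1, Cxcl2 and Cxcl3 are shown first, because these genes belong to one induction group and share a stretch of sequence. Each line gives the 120 bases upstream of the RefSeq transcription start (build GRCm38.p6), read 5′ to 3′ on the strand of the gene, with matches to the NF-kB motif GGGNNTTTCC on either strand in capitals. The windows lie at chr5:90891125-90891244, chr5:90903779-90903898 and chr5:90785981-90786100, all on the plus strand.
Cxcl1: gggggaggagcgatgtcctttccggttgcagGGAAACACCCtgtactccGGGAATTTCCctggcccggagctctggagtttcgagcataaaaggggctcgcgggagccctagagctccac
Cxcl2: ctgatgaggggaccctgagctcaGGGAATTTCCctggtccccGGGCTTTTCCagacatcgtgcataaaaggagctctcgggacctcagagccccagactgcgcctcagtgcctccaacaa
Cxcl3: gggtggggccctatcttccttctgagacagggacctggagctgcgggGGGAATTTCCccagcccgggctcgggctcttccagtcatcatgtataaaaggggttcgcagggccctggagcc

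The identical letters GGGAATTTCC began 71 bases upstream of the start in Cxcl1, 97 in Cxcl2 and 73 in Cxcl3. Among all 32851 promoter windows of 300 bases in the same table, 0.0883% held these letters on either strand and 1.63% held GGGNNTTTCC. The table had windows for 7 of the 9 genes, without Cxcl5 and Cxcl16, and neither motif was found in the windows of Cxcl9, Cxcl10, Cxcl12 or Cx3cl1. Only these exact patterns were searched, not looser forms of the NF-kB motif. The Cxcl10 stretch below holds the similar letters gggaaattcc and ggggacttcc, left in lower case. Cxcl10 held 1 match to the interferon-stimulated response element GAAANNGAAA, starting 213 bases upstream, which 3.44% of windows hold on either strand. It is shown in capitals in the 140 bases from 230 to 91 upstream, at chr5:92348980-92349119 on the minus strand.
Cxcl10: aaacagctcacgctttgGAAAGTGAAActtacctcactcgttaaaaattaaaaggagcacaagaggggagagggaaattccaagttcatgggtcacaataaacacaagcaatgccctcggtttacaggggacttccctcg
The gamma-activated site TTCNNNGAA, present in 8.30% of windows, was found in none of the 7. These are matches of letters and say nothing about binding of a factor in these cells.

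In GENCODE M21 (GRCm38), the neutrophil-attracting genes lie in one cluster of 146579 bases on the plus strand: Cxcl5 (chr5:90759360-90761624), Cxcl3 (chr5:90786103-90789600), Cxcl1 (chr5:90891241-90893115) and Cxcl2 (chr5:90903871-90905938). Cxcl9 (chr5:92321347-92328079) and Cxcl10 (chr5:92346638-92348889) lie further along the same chromosome, on the minus strand, within 27543 bases. Cxcl12 is at chr6:117168535-117181367, Cxcl16 at chr11:70453983-70459984 on the minus strand and Cx3cl1 at chr8:94772009-94782427. No 50-base sequence was shared between the last 400 bases of the transcripts of any pair of the 9 genes. Cxcl10 overlaps Art3, and Cxcl16 overlaps Zmynd15, each on the opposite strand. Whether strand was used in counting is not given in the sources used here, so reads in these overlaps could belong to either gene.

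After filtering, 35832 WT cells and 26168 EC-iCD45KO cells were kept, with medians of 1611 and 1506 UMIs (unique molecular identifiers, each marking 1 captured RNA molecule). Clusters were named X-like from marker genes outside the chemokines, which gave 15 classes of at least 50 cells in each library. The libraries differed widely in composition. B-like cells made up 16.2% of WT and 1.30% of EC-iCD45KO cells, macrophage-like cells 7.47% and 30.5%, neutrophil-like cells 1.35% and 4.16%, while 30.1% and 10.8% stayed unnamed. In all, 340 cell barcodes occurred in both libraries, and without them the log2 ratios in EC-like cells were 1.12 for Cxcl1 and 1.18 for Cxcl2. Ptprc, the targeted gene, was lower in EC-like cells of the EC-iCD45KO library, at 306 and 113 UMIs per 1000000 UMIs of the class (CPM; log2 ratio -1.43), but was lower by a similar amount in smooth muscle (SMC)-like (-1.29) and fibroblast-like cells (-1.20). Counts over the whole gene do not show which exons were deleted.

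Markers of macrophages were present in every vascular class, which bears on the chemokines that macrophages make. In EC-like cells the 10 macrophage markers summed to 2831 CPM in WT and 3593 CPM in EC-iCD45KO, beside 4682 and 5404 CPM for the 12 EC markers, and the 8 neutrophil markers summed to 67.0 and 171 CPM. All 10 macrophage markers were above 0 in both libraries, and of the neutrophil markers Ly6g was at 0 in EC-iCD45KO. B-like cells, which should make little of most of these chemokines, served as a guide to free RNA in the droplets, with T/NK-like cells beside them. T/NK-like cells are no such guide for Cxcl10, of which single cells held up to 41 UMIs in WT and 56 in EC-iCD45KO, and a weak one for Cxcl2, with up to 42 and 79. To compare shares of cells with a UMI, every cell was reduced at random to 1000 UMIs, and cells with fewer did not enter.

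The classes differed strongly in which chemokines they held (plot of levels by class). Cxcl2 and Cxcl3 were highest in neutrophil-like cells, Cxcl16 in macrophage-like cells and Cxcl12 in fibroblast-like cells, in both libraries. Cxcl10 was highest in monocyte-like cells of WT and in macrophage-like cells of EC-iCD45KO, where T/NK-like cells came next with an overlapping interval. Fractalkine was highest in SMC-, chondrocyte-, EC- and fibroblast-like cells, and it reached no more than 3.27 CPM in macrophage-, monocyte-, dendritic-, neutrophil-, T/NK- or B-like cells of either library.

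**Figure D1:**
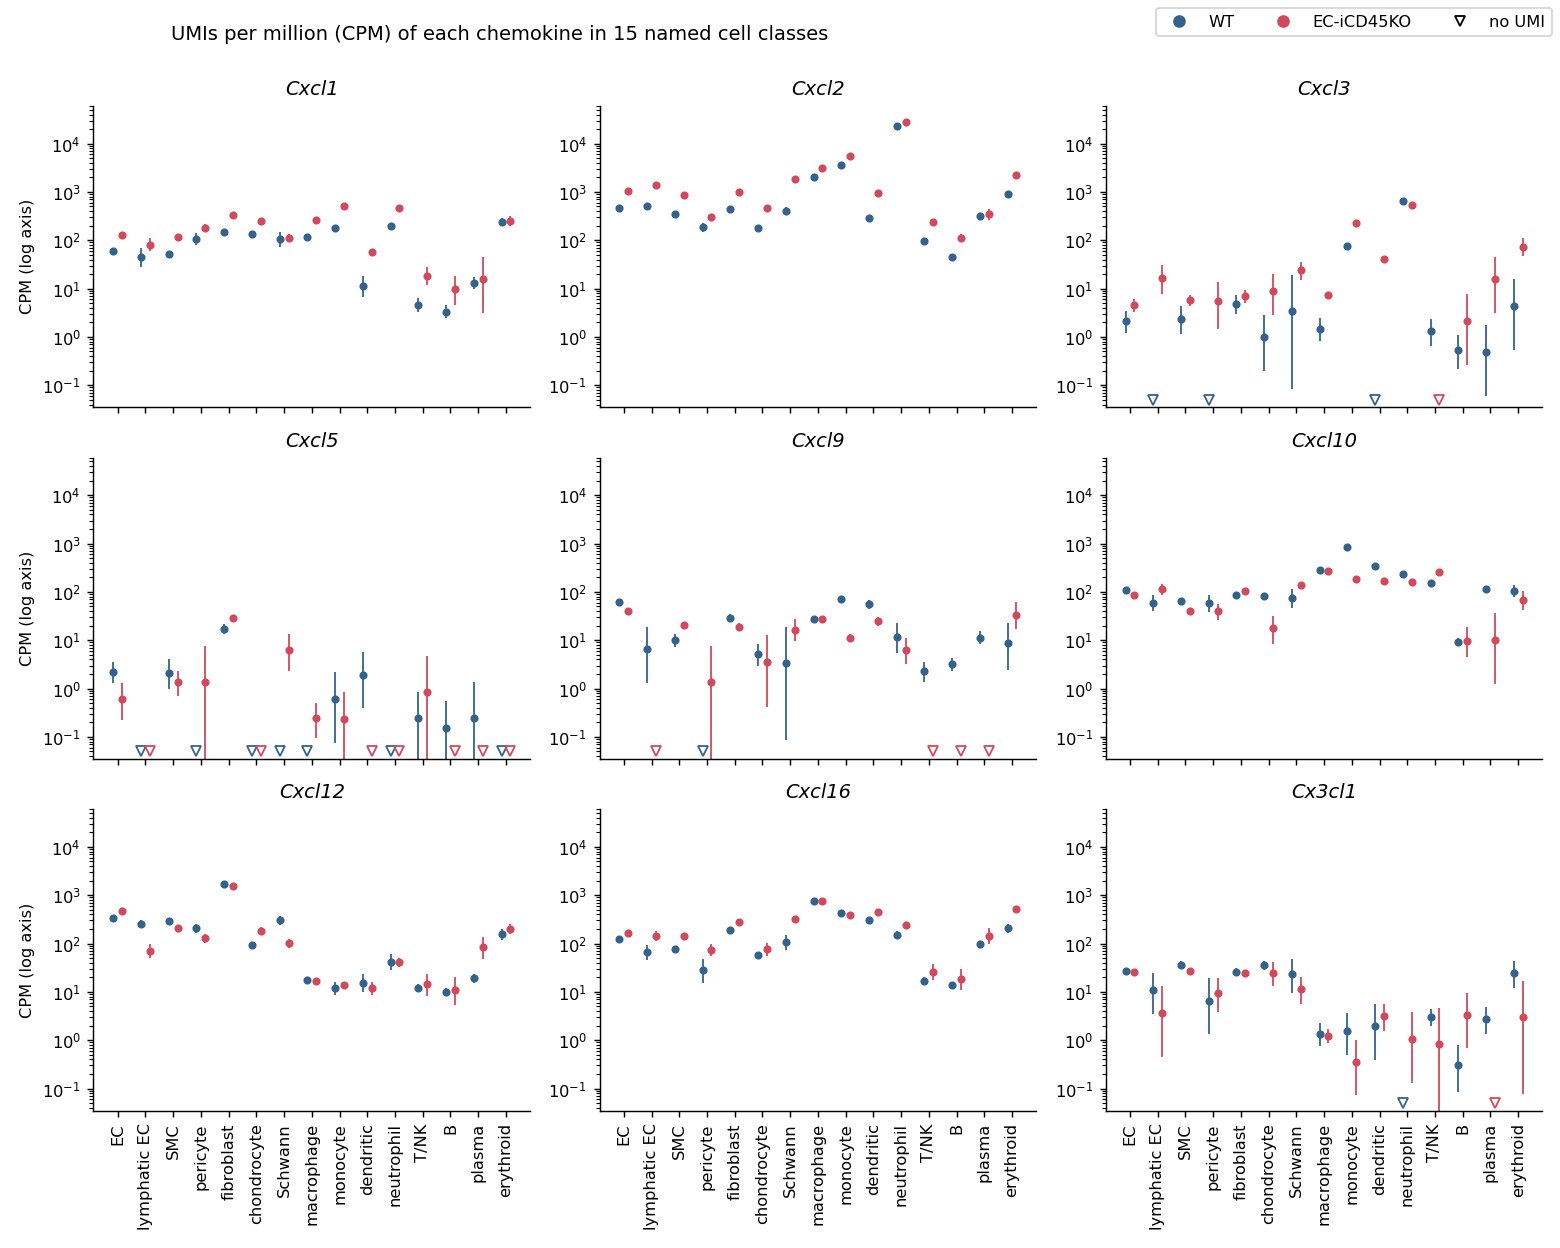
Level of each of the 9 chemokine genes, in CPM on a log axis, in 15 named cell classes of the WT (blue) and EC-iCD45KO (red) libraries; bars are exact 95% Poisson intervals and open triangles mark classes with no UMI. Cxcl2 reaches its highest level in neutrophil-like cells and Cxcl12 in fibroblast-like cells of both libraries.

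The libraries were then compared within each class. A gene was counted as higher or lower when the mean of both libraries was at least 5 CPM and the ratio of CPM was at least 2, a log2 ratio of 1. In EC-like cells 7 of the 9 genes reached this level. Cxcl1 and Cxcl2 were at least 2-fold higher in EC-iCD45KO, where 1.53% of all 10954 genes were, and none was at least 2-fold lower, where 3.62% were. The median log2 ratio of the 7 genes was 0.42, beside -0.01 for all genes. SMC-like cells had 3 of 7 genes at least 2-fold higher (Cxcl1, Cxcl2 and Cxcl9; 1.34% of all genes) and 0 lower (4.61%). In fibroblast-like cells 2 of 9 were higher, again Cxcl1 and Cxcl2 (1.67%), and 0 lower (4.67%). Cxcl1 fell short of 2-fold within each cluster of this class and with its clusters weighted equally. For macrophage-like cells 1 of 6, Cxcl1, was higher (0.891%) and 0 lower (1.34%). Monocyte-like cells had 2 of 7 higher, Cxcl1 and Cxcl3 (1.59%), and 2 lower, Cxcl9 and Cxcl10 (4.41%); the calls of Cxcl3 and Cxcl10 were not seen within the clusters that a finer clustering gives, as described with Cxcl10. The median log2 ratio of the members tested was 0.95 in SMC-like, 0.51 in fibroblast-like, -0.03 in macrophage-like and 0.19 in monocyte-like cells, and over all genes it lay between -0.05 and -0.02 in these 4 classes.

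The other classes had fewer cells or a higher background. Neutrophil-like cells had 1 of 7 genes at least 2-fold higher, Cxcl1 (5.27% of all genes), and 0 lower (11.9%). Among dendritic-like cells 3 of 7 were higher, Cxcl1, Cxcl2 and Cxcl3 (2.86%), and 1 lower, Cxcl9 (4.45%). Cxcl3 in dendritic-like cells had 0 UMIs in WT and passed the minimum through EC-iCD45KO. Macrophage markers were higher in EC-iCD45KO in both of these classes, 3661 and 6369.8 CPM in neutrophil-like and 1192 and 2874 CPM in dendritic-like cells, where neutrophil markers were at 8.98 and 112 CPM; their part in these counts was not tested. T/NK-like and B-like cells each had 2 of 5 higher, Cxcl1 and Cxcl2, and 0 lower, where 5.28% and 3.1% of all genes were higher and 2.33% and 1.85% lower. Cxcl1 in these classes was below 5 CPM in WT (4.69 and 3.34 CPM) and passed the minimum through EC-iCD45KO (18.5 and 9.81 CPM, from 22 and 9 UMIs). Lymphatic EC-like cells had Cxcl2, Cxcl3 and Cxcl16 higher (10.2%) and Cxcl12 and Cx3cl1 lower (11%) out of 7. Of these, Cxcl3 rests on 0 and 9 UMIs and passed the minimum through EC-iCD45KO, and Cx3cl1 rests on 5 and 2 UMIs, with an interval that includes 0 and a ratio of 0.15 with the mean of single-cell CPM. Pericyte-like cells had 1 of 6 higher, Cxcl16 (9.73%), and 0 lower (11.1%). Chondrocyte-like cells had Cxcl2 higher (4.99%) and Cxcl10 lower (9.77%) out of 6. In Schwann-like cells Cxcl2, Cxcl3, Cxcl9 and Cxcl16 were higher (14%) and Cxcl12 and Cx3cl1 lower (10.2%) out of 8, with 1 and 23 UMIs of Cxcl3, 1 and 16 of Cxcl9 and 7 and 11 of Cx3cl1; the intervals of Cxcl9 and Cx3cl1 include 0. Cxcl3 and Cxcl9 were below 5 CPM in WT here and passed the minimum through EC-iCD45KO. Erythroid-like cells had the same 4 genes higher (14.7%) and Cx3cl1 lower (16.8%) out of 8. In this class cluster 27 had 357 cells from WT and 129 from EC-iCD45KO, whereas cluster 33 had 0 and 61, and cluster 33 has fibroblast-type genes such as Sfrp4 among its leaders. Within cluster 27 Cxcl3 was 2 and 1 UMIs, so its call came from cluster 33, and Cx3cl1 was 11 and 0 UMIs. Over the erythroid-like class Cxcl3 passed the minimum through EC-iCD45KO and Cx3cl1 through WT. Plasma-like cells, with 57 cells in EC-iCD45KO, had Cxcl3 and Cxcl12 higher (11.7%) and Cxcl9 and Cxcl10 lower (22.3%) out of 7. Cxcl3 there was 2 and 3 UMIs, Cxcl9 46 and 0, Cxcl10 461 and 2, and Cxcl12 77 and 16, so these calls rest on few molecules in EC-iCD45KO. Of these, Cxcl3 passed the minimum through EC-iCD45KO and Cxcl9 through WT. Macrophage markers were higher in EC-iCD45KO in several of these classes, at 3892 and 8075 CPM in Schwann-like, 4675 and 10787 CPM in erythroid-like and 1719.8 and 4262 CPM in lymphatic EC-like cells, and their part in the counts was not tested.

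**Figure D2:**
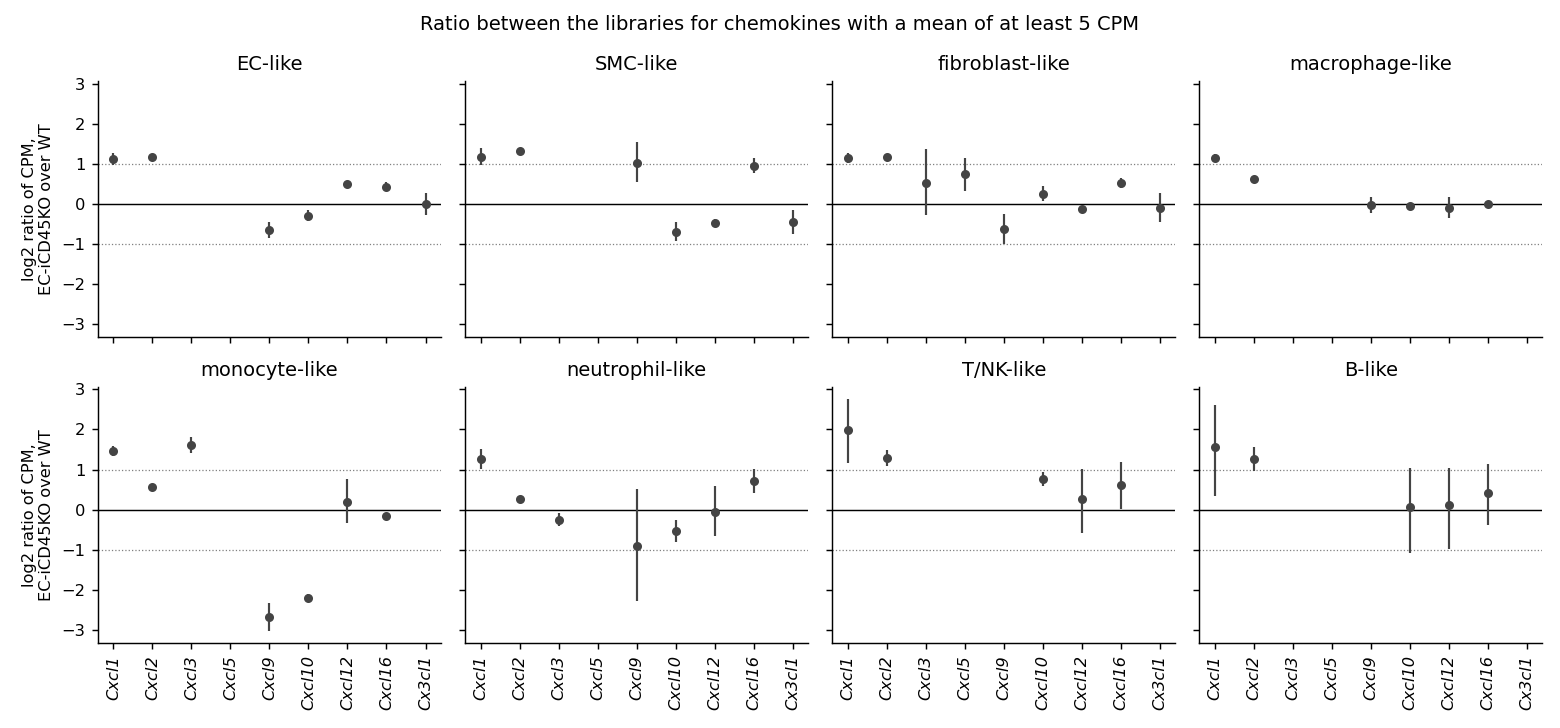
Log2 ratio of CPM, EC-iCD45KO over WT, for each chemokine gene with a mean of at least 5 CPM in 8 classes; bars are exact 95% intervals for counting error, and dotted lines mark a 2-fold difference. Cxcl1 lies above 0 in all 8 panels, and Cxcl9 and Cxcl10 lie far below 0 in monocyte-like cells.

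Cxcl2, a neutrophil attractant released early by macrophages and neutrophils, was higher in EC-iCD45KO in all 15 classes, in plasma-like cells by less than counting error (0.10, -0.27 to 0.46). EC-like cells held 467 CPM in WT (453 to 483) and 1048 CPM in EC-iCD45KO (1028 to 1068), which is a log2 ratio of 1.16 (1.11 to 1.22). In fibroblast-like cells it was 438 and 984 CPM (1.17), and in its clusters, whose shares of the class differed between the libraries, 203 and 747 CPM in cluster 13 (1.88) and 672 and 1795 CPM in cluster 9 (1.42), both above the class ratio. It stood in SMC-like cells at 353 and 881 CPM (1.32). Macrophage markers in fibroblast-like cells summed to 2852 and 3686 CPM, all 10 above 0, and neutrophil markers to 72.0 and 166 CPM. By cluster the macrophage markers were 1074 and 2599 CPM in cluster 13 and 4623 and 7396 CPM in cluster 9, and in SMC-like cells they were 1952 and 2937 CPM. Their part in the Cxcl1 and Cxcl2 ratios of the whole classes was not tested. The 3 classes with most Cxcl2 differed by less. Macrophage-like cells had 2046 and 3139 CPM (0.62), monocyte-like cells 3685 and 5487 CPM (0.57; as given with Cxcl10, not in each of their finer clusters), and neutrophil-like cells 22959.9 and 27403 CPM (0.26). Lymphocytes showed a ratio as large as the EC-like cells: B-like cells had 46.1 and 111 CPM (1.27, 0.95 to 1.57) and T/NK-like cells 96.2 and 234 CPM (1.28, 1.08 to 1.48). With the B-like UMIs per cell subtracted from EC-like cells, the log2 ratio was 1.15. Over all cells kept, Cxcl2 was 925 CPM in WT and 2828 CPM in EC-iCD45KO, and 22.0% and 22.2% of these UMIs lay in neutrophil-like cells.

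Cxcl1, also a Cxcr2 ligand and made by stromal cells as well as macrophages, followed the same direction. Its level in EC-like cells was 59.4 CPM in WT (54.2 to 65.0) and 129 CPM in EC-iCD45KO (122 to 136), for a log2 ratio of 1.12 (0.97 to 1.27). Fibroblast-like cells stood at 151 and 333 CPM (1.14, or 0.89 with their clusters weighted equally), SMC-like cells at 51.5 and 115 CPM (1.16). Macrophage-like cells showed a similar ratio, with 119 and 262 CPM (1.14), and monocyte-like cells a larger one, with 183 and 505 CPM (1.46), which differed within that class, as given with Cxcl10. Neutrophil-like cells had 197 and 470.1 CPM (1.25). The SMC-like clusters differed. Cluster 3 had 108 and 776 Cxcl1 UMIs in 1568 and 2551 cells, and cluster 23 had 108 and 341 in 218 and 458. The 2-fold difference was seen in cluster 3 and not in cluster 23. Macrophage markers were 3309 and 5692 CPM in cluster 3 and 264 and 463 CPM in cluster 23, and their part was not tested. Schwann-, plasma- and erythroid-like cells did not differ beyond counting error. In Schwann-like cells Cxcl1 was at 105 and 110.1 CPM (0.07, -0.51 to 0.70). B-like cells held only 44 and 9 UMIs, 3.34 and 9.81 CPM.

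The 3 EC-like clusters differed in their level of macrophage markers. Cluster 16, led by Gpihbp1, Adgrl4 and Ccdc85a, had the lowest macrophage-marker level, 729 CPM in WT and 628 in EC-iCD45KO. There Cxcl2 was 138 and 160.2 CPM (0.21, 0.02 to 0.41). In cluster 17, led by Sfrp1, Tmem158 and Gkn3, the markers were at 1951 and 3043 CPM and Cxcl2 at 379 and 807 CPM (1.09). Cluster 1, led by Rbp7, Glycam1 and Fabp4, held more macrophage markers, 4693 and 6801 CPM, than EC markers, 2903 and 3012 CPM, and had the most Cxcl2, 729 and 2043 CPM (1.49). Across these 3 clusters, Cxcl2 thus stood in the same order as the macrophage markers in both libraries. Cxcl1 did not: it was 37.1 and 140.0 CPM in cluster 16 (1.91), 73.4 and 75.8 in cluster 17 (0.05), and 65.1 and 142 in cluster 1 (1.12). The share of cluster 16 cells with a Cxcl1 UMI after thinning was 2.45% in WT and 2.94% in EC-iCD45KO, and the richest 1% of its cells held 50.6% and 72.2% of its Cxcl1 UMIs, so the difference in level there lay in few cells.

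**Figure D3:**
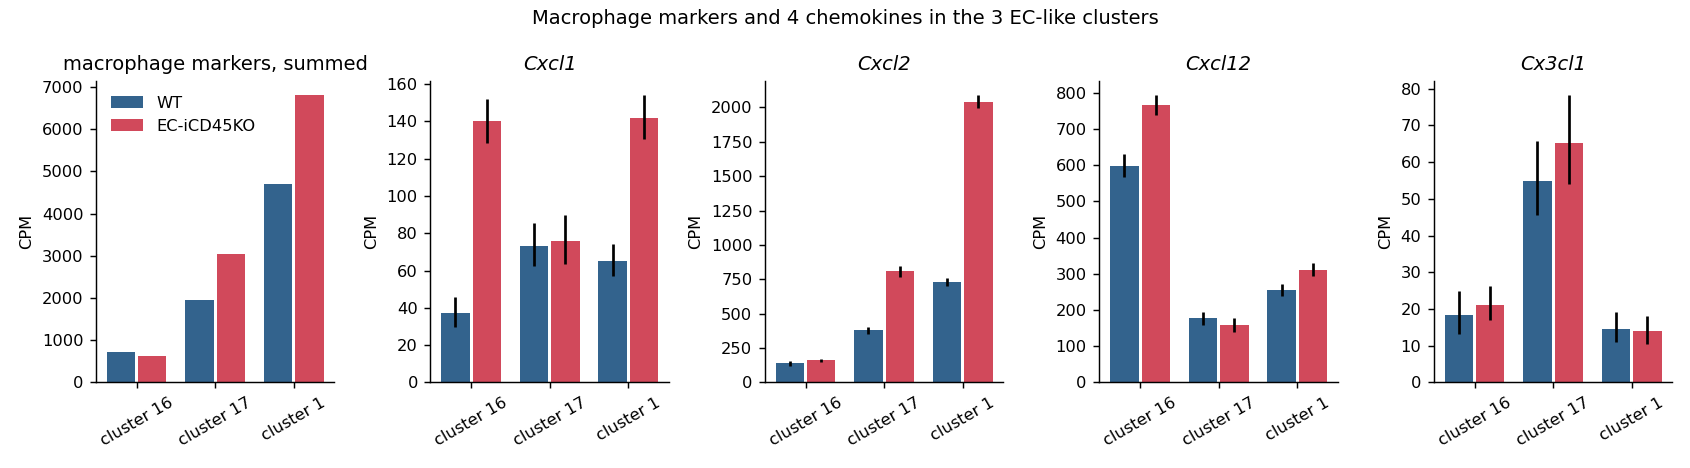
Summed level of 10 macrophage markers and levels of Cxcl1, Cxcl2, Cxcl12 and Cx3cl1, in CPM, in the 3 EC-like clusters of the WT (blue) and EC-iCD45KO (red) libraries; error bars on the chemokines are exact 95% Poisson intervals. Cxcl2 increases with the macrophage markers from cluster 16 to cluster 1, whereas Cxcl12 is highest in cluster 16 and Cx3cl1 in cluster 17.

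EC-like cells without a single UMI of a macrophage, monocyte or neutrophil marker, a subset chosen after seeing the data, numbered 660 in WT and 457 in EC-iCD45KO. Cxcl2 in them was 84.4 CPM (105 UMIs) and 171 CPM (183 UMIs), so the level was lower than in all EC-like cells and the log2 ratio, 1.02, was close to that of the whole class. Cxcl1 did not stand higher in EC-iCD45KO in these cells, with 30.5 CPM (38 UMIs) and 25.2 CPM (27 UMIs), a log2 ratio of -0.28. The Cxcl1 ratio of EC-like cells was thus not seen in the cells free of these markers, while that of Cxcl2 was. B-like cells, the guide to free RNA, had a Cxcl2 ratio at least as large, as given with Cxcl2. The part of free RNA in the Cxcl2 of the marker-free cells was not tested. In SMC-like cells of this kind Cxcl1 was higher, at 27.9 and 123 CPM (15 and 52 UMIs), and Cxcl2 was 119 and 204 CPM (64 and 86 UMIs; 0.78). Fibroblast-like cells of this kind had 157 and 159.6 CPM of Cxcl1 (59 and 26 UMIs), without the difference seen in the whole class, and 85.0 and 528 CPM of Cxcl2 (32 and 86 UMIs; 2.63).

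Shares of cells gave a similar picture for Cxcl2. After thinning, a Cxcl2 UMI was found in 24.4% of WT and 41.8% of EC-iCD45KO EC-like cells (30.9% and 55.3% without thinning), and in 4.46% and 10.3% of B-like cells (8.36% and 25.3% without). The median depths were 1324 and 1288 UMIs in EC-like and 2000 and 2548 in B-like cells, and 1238 and 1444 EC-like cells were too shallow to thin. The share in EC-like cells thus exceeded the free-RNA guide in both libraries, and the guide itself was higher in EC-iCD45KO. For Cxcl1 the thinned shares were 4.31% and 7.59% of EC-like cells, 9.74% and 18.8% of fibroblast-like cells, and 0.433% and 1.29% of T/NK-like cells. Cxcl1 and Cxcl2 tended to be in the same cells: among EC-like cells with a Cxcl1 UMI, 45.0% in WT and 69.9% in EC-iCD45KO also had Cxcl2, beside 23.4% and 39.5% of those without Cxcl1.

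**Figure D4:**
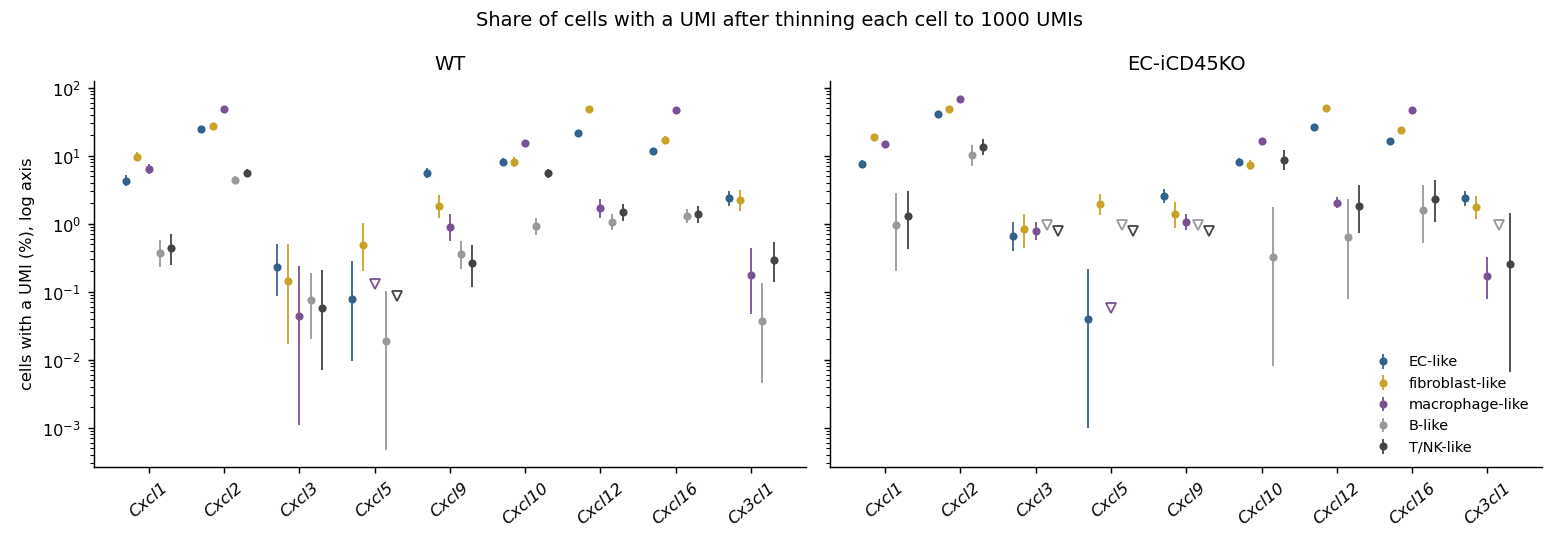
Share of cells with a UMI of each chemokine gene, on a log axis, after thinning each cell to 1000 UMIs, in 5 classes of the WT (left) and EC-iCD45KO (right) libraries; bars are exact 95% binomial intervals, and open triangles mark the share that 3 cells would give where no cell had a UMI. Cxcl2 and Cxcl12 lie above the grey B-like and T/NK-like guides in EC-like cells, and Cxcl3 and Cxcl5 do not clear them in EC-like cells of EC-iCD45KO.

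Cxcl3, a further Cxcr2 ligand, had its highest levels in neutrophil-like and monocyte-like cells. Neutrophil-like cells held 635 CPM in WT and 534 CPM in EC-iCD45KO, with a log2 ratio of -0.25 (-0.41 to -0.09), and monocyte-like cells 75.4 and 230.4 CPM, a ratio of 1.61 (1.42 to 1.81). The neutrophil-like ratio was 0.0086 with the stricter cell filter, so its direction turned, and the monocyte-like ratio fell short of 2-fold, at 0.15 and 0.72, within its finer clusters. In dendritic-like cells there was no Cxcl3 UMI in WT and 141 UMIs in EC-iCD45KO, 40.5 CPM, which is at least a log2 ratio of 4.40 against the level of 3 UMIs in WT. These lay in 20 cells, with 50 in 1 cell and 88.7% in the richest 1%. In monocyte-like cells too the UMIs were concentrated: 1% of the cells held 76.8% of them in WT and 62.5% in EC-iCD45KO. Macrophage-like cells had 15 and 217 UMIs, 1.47 and 7.47 CPM, with a mean below the 5 CPM minimum. EC-like cells had 17 and 45 UMIs and a thinned share of 0.233% and 0.669%. In EC-iCD45KO, 0 of 312 B-like cells had a Cxcl3 UMI, where 3 cells would give a share of 0.962%. Cxcl3 in EC-like cells was thus not distinguishable from the guide there.

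Cxcl5, a Cxcr2 ligand typical of epithelial and stromal cells, was highest among the named classes in fibroblast-like cells, at 17.3 CPM in WT (71 UMIs in 18 cells) and 28.8 CPM in EC-iCD45KO (178 UMIs in 75 cells), with a log2 ratio of 0.73 (0.33 to 1.15). Within this class it lay in cluster 13, led by Saa3, Sfrp4 and Ccl19, at 32.3 and 36.8 CPM, a smaller ratio of 0.19 (-0.23 to 0.62). Cluster 9, led by C7, Dpep1 and Inmt, had 5 and 2 UMIs. Cluster 13 was the smaller of the 2 fibroblast-like clusters in WT and the larger in EC-iCD45KO. EC-like cells held 18 and 6 Cxcl5 UMIs in all. Fibroblast-like cells gave 32.6% of all Cxcl5 UMIs in WT and 53.0% in EC-iCD45KO, and unnamed cells 50.5% and 36.3%.

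Cxcl9 and Cxcl10, the interferon-inducible pair, were lower in the monocyte-like class of EC-iCD45KO as a whole. Cxcl10 there was 853 CPM in WT (822 to 885) and 185 CPM in EC-iCD45KO (176 to 194), or a log2 ratio of -2.20 (-2.29 to -2.11), and the thinned share of cells with a UMI was 25% and 8.17%. Cxcl9 was 71.4 and 11.2 CPM (-2.67, -3.03 to -2.32). Dendritic-like cells shared the direction, with Cxcl10 at 337 and 170.0 CPM (-0.99) and Cxcl9 at 55.8 and 24.7 CPM (-1.18). For Cxcl9 this rests on few cells: 1 cell held 34 of 87 UMIs in WT and 1 held 72 of 86 in EC-iCD45KO. Cxcl10 was also lower in plasma-like cells, 114 and 10.3 CPM (-3.46), and chondrocyte-like cells, 83.7 and 17.5 CPM (-2.26). Macrophage-like cells differed far less: Cxcl10 was 286 and 274 CPM (-0.07, -0.13 to -0.0045) and Cxcl9 27.7 and 26.9 CPM (-0.04, -0.24 to 0.16). Different clusters hold most of the macrophage-like cells of the libraries, clusters 11 and 5 in WT and clusters 5 and 7 in EC-iCD45KO. Within cluster 5, led by Ccl12, Mrc1 and Ccl8, Cxcl10 was 575 and 439 CPM (-0.39), and in cluster 10, led by Gpnmb and Atp6v0d2, it was 35.0 and 81.5 CPM (1.22), so the clusters of this class differed in direction, a difference that was not tested.

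The monocyte-like class was 1 cluster at the resolution used for naming, and at Leiden resolution 2 nearly all of it fell into 2 monocyte-named clusters, numbered 8 and 34 at that resolution and unrelated to clusters of the same number elsewhere in the text. The clustering left out the chemokines and the interferon response genes listed here, but not other interferon genes, and cluster 34 was led by Ifit1bl1, Ifi202b and Slfn4. Cluster 34 held 436 of 905 monocyte-like cells in WT and 46 of 1987 in EC-iCD45KO, and cluster 8 held 434 and 1819. Cxcl10 was 1525 and 2264 CPM in cluster 34 (0.57) and 107 and 117 CPM in cluster 8 (0.13). The lower Cxcl10 of the class was therefore seen in neither cluster, and the clusters' shares of the class differed between the libraries. Cxcl9 was lower in both, 96.2 and 44.2 CPM in cluster 34 (164 and 11 UMIs) and 32.2 and 7.50 CPM in cluster 8 (47 and 61 UMIs). Cxcl1 had log2 ratios of 0.06 in cluster 34 and 1.22 in cluster 8, and Cxcl3 of 0.15 and 0.72. For Cxcl2 they were -0.09 in cluster 34, at 3493 and 3277 CPM, and 0.46 in cluster 8, at 4084 and 5636 CPM. This split was made after seeing the data, and whether it reflects cell state, the makeup of the library or the mice cannot be told apart with 1 library per group.

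In the class as a whole the monocyte markers themselves were at 2679 CPM in WT and 1745 CPM in EC-iCD45KO and the macrophage markers at 6620.3 and 6469 CPM. The part of this in the chemokine ratios was not tested. Of 9 interferon response genes set beside the pair, 8 were at least 2-fold lower in monocyte-like cells of EC-iCD45KO, where 4.41% of all genes were, among them Isg15 (1508 and 219 CPM, -2.78) and Ifit3 (411 and 35.3 CPM, -3.54). Within the finer clusters, 0 of 9 were lower and 3 (Gbp2, Ifit1 and Rsad2) at least 2-fold higher in cluster 34, where 11.7% of all genes were lower and 9.604% higher. In cluster 8, 4 of 8 were lower (Irf7, Ifit3, Isg15 and Rsad2) and 0 higher, beside 3.01% and 1.67% of all genes. Irf1 in the class was 166 and 116 CPM (-0.52). Neutrophil-like cells also had 8 of 9 at least 2-fold lower, beside 11.9% of all genes, while Cxcl10 there was 234 and 161 CPM (-0.54). In macrophage-like cells 0 of the 8 genes tested were lower and 1, Gbp2, was higher (1.05), beside 1.34% and 0.891% of all genes. The median log2 ratio of the list was -2.43 in monocyte-like, -2.12 in neutrophil-like, -0.70 in EC-like and 0.09 in macrophage-like cells. Ifng, the interferon that induces Cxcl9 most strongly, was at 71.0 and 84.2 CPM in T/NK-like cells (0.25).

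**Figure D5:**
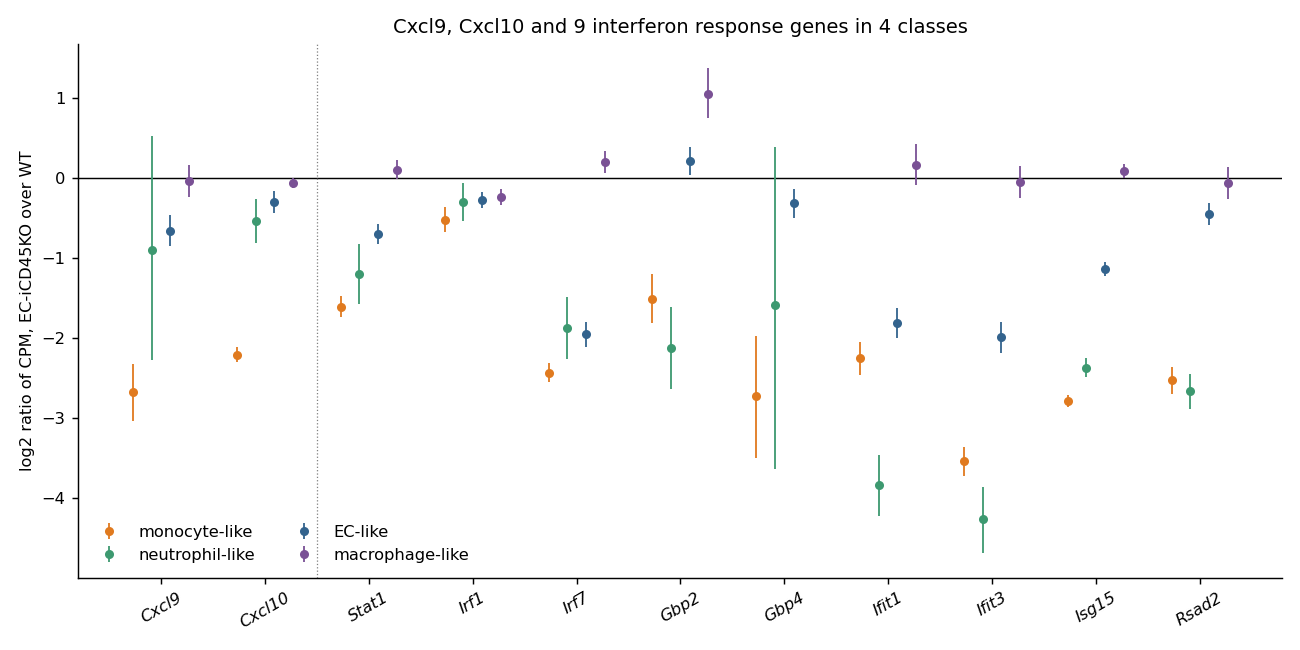
Log2 ratio of CPM, EC-iCD45KO over WT, of Cxcl9, Cxcl10 and 9 interferon response genes in 4 classes, shown where the mean was at least 5 CPM; bars are exact 95% intervals for counting error. The points of monocyte-like and neutrophil-like cells lie below 0 for all genes shown, beyond a 2-fold difference for 8 of the 9 response genes, and those of monocyte-like cells are for the class as a whole. Those of macrophage-like cells lie between -0.24 and 0.19 for the response genes other than Gbp2.

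In EC-like cells the pair was lower by less. Cxcl9 was 62.9 CPM in WT and 39.7 CPM in EC-iCD45KO (-0.66, -0.86 to -0.47), and its thinned share of cells was 5.55% and 2.60%. Cluster 16, the one with fewest macrophage markers, had the highest Cxcl9 of the EC-like clusters, 128 and 64.3 CPM (-0.99), in 12.1% and 5.51% of cells. B-like cells had 0.353% in WT and 0 of 312 in EC-iCD45KO, where 3 cells would give a share of 0.962%. Cxcl9 in EC-like cells was therefore above the guide in both libraries. Cxcl10 was 109 and 87.9 CPM in EC-like cells (-0.31, -0.44 to -0.17), but the direction turned with the mean of single-cell CPM (0.15). Its share was 8.22% and 8.10%, which did not differ beyond counting error, beside 0.928% and 0.321% of B-like cells. Cxcl10 in EC-like cells was thus above the B-like guide in both libraries. In the EC-like cells free of myeloid markers Cxcl10 was 62.7 and 14.9 CPM (78 and 16 UMIs; -2.07), and Cxcl9 was 79.6 and 44.8 CPM (99 and 48 UMIs). Of the 9 interferon response genes 4, Irf7, Ifit1, Ifit3 and Isg15, were at least 2-fold lower in EC-like cells, beside 3.62% of all genes.

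Cxcl9 in SMC-like cells went the other way, with 10.0 CPM (42 UMIs) in WT and 20.4 CPM (197 UMIs) in EC-iCD45KO, which gives a log2 ratio of 1.02 (0.54 to 1.54). The EC-iCD45KO UMIs lay in 60 cells, with 37 in 1 cell and 84.8% in the richest 1%, and the thinned shares were 0.976% and 1.41%. Macrophage markers were higher in this class too, as given with Cxcl2. In SMC-like cells with no UMI of a myeloid marker Cxcl9 was 10 UMIs in WT and 1 in EC-iCD45KO, so the higher level was not seen there. Cxcl10 in SMC-like cells was 64.3 and 39.7 CPM (-0.70). T/NK-like cells had 152 and 259 CPM of Cxcl10 (0.77, 0.58 to 0.95), but their clusters differed: 31.8 and 162 CPM in cluster 8 (Nkg7, Cd8b1), 395 and 483 in cluster 22 (Tnfrsf4, Ctla4), and 337 and 265 in cluster 25 (Trdc, Cd163l1). The ratio was thus above a 2-fold difference in cluster 8 alone of the 3.

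Cxcl12, the Cxcr4 ligand that marks stromal niches, had its highest level in fibroblast-like cells, 1672 CPM in WT (1633 to 1712) and 1518 CPM in EC-iCD45KO (1488 to 1549; log2 ratio -0.14). These cells gave 37.5% and 45.5% of all Cxcl12 UMIs. Both fibroblast-like clusters were lower in EC-iCD45KO, cluster 13 at 2613 and 1803 CPM (-0.54) and cluster 9 at 735 and 546 CPM (-0.43). EC-like cells were higher, 331 and 468 CPM (0.50, 0.43 to 0.57), and SMC-like cells lower, 287 and 207 CPM (-0.48, -0.58 to -0.37). In the SMC-like cells free of myeloid markers the direction turned, at 247 and 299 CPM (133 and 126 UMIs; 0.28), as it did in fibroblast-like cells (0.10). Among the EC-like clusters, cluster 16 was highest, at 598 and 765 CPM (0.36), and cluster 17 lowest, at 177 and 158 CPM (-0.16), with cluster 1 at 255 and 312 CPM (0.29). The ratio of the class exceeded that of each cluster, and cluster 17 held 916 of 3816 EC-like cells in WT and 563 of 3987 in EC-iCD45KO. Cxcl12 was also 535 and 937 CPM in the EC-like cells free of myeloid markers (0.81). A Cxcl12 UMI was found in 21.5% and 26.4% of thinned EC-like cells, beside 1.08% and 0.641% of B-like cells. The 10 fibroblast markers summed to 574 and 493 CPM in EC-like cells, and their part in the Cxcl12 ratio was not tested.

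Lymphatic EC-like cells had the largest difference in Cxcl12 among the vascular classes, 251 CPM (117 UMIs) and 70.0 CPM (38 UMIs), a log2 ratio of -1.84 (-2.41 to -1.30). Over all genes of this class, 11% were at least 2-fold lower. The 10 fibroblast markers there summed to 1969 CPM in WT and 475 CPM in EC-iCD45KO, with Scara5 at 0 in EC-iCD45KO, and their part in the result was not tested.

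Cxcl16, a membrane-bound ligand for Cxcr6 that also binds oxidised lipoprotein, was highest in macrophage-like cells and nearly level between the libraries, at 769 and 759.5 CPM (-0.02, -0.05 to 0.02), in 47.5% and 47.0% of thinned cells. Its highest level was in cluster 11, 1029 and 1045 CPM. The gene that leads this cluster is Zmynd15, which overlaps Cxcl16 on the other strand, and how many reads the genes share was not tested. Monocyte-like cells had 433 and 386 CPM (-0.17) and dendritic-like cells 307 and 443 CPM (0.53). In EC-like cells Cxcl16 was 126 and 169 CPM (0.42, 0.31 to 0.53), but only 42.4 and 40.9 CPM in cluster 16 (-0.05) against 185 and 302 CPM in cluster 1 (0.70). The direction turned in the EC-like cells free of myeloid markers, at 40.2 and 32.6 CPM (50 and 35 UMIs; -0.30). Like Cxcl2, it followed the order of the macrophage markers across the EC-like clusters. The thinned share in EC-like cells, 11.6% and 16.4%, was above the 1.39% and 2.32% of T/NK-like cells, the guide used for this gene because B cells can make it.

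Cx3cl1, which tethers Cx3cr1-bearing monocytes to the endothelium, did not differ beyond counting error in EC-like cells, at 26.5 CPM in WT (23.1 to 30.3) and 26.3 CPM in EC-iCD45KO (23.2 to 29.7), with a log2 ratio of -0.01 (-0.28 to 0.26). Within the EC-like cells it was highest in cluster 17, 54.9 and 65.3 CPM, followed by cluster 16, 18.3 and 21.2 CPM, and cluster 1, 14.7 and 13.9 CPM. SMC-like cells had 36.2 and 26.5 CPM (-0.45, -0.75 to -0.15, but 0.02 with the mean of single-cell CPM) and fibroblast-like cells 26.1 and 24.4 CPM (-0.10, -0.46 to 0.27). Of the SMC-like UMIs, 104 of 152 in WT and 156 of 256 in EC-iCD45KO lay in cluster 23. There the level was lower in EC-iCD45KO, whereas it was near level in cluster 3. The intervals of EC-like and fibroblast-like cells overlapped in both libraries. Macrophage-like cells had 1.37 and 1.24 CPM. A Cx3cl1 UMI occurred in 2.40% and 2.36% of thinned EC-like cells, beside 0.289% and 0.258% of T/NK-like cells.

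Receptors of these ligands were examined next. Cxcr2, the receptor of Cxcl1 and Cxcl2, was at 531 and 518 CPM in neutrophil-like cells (-0.04). Cxcr6, the receptor of Cxcl16, was at 173 and 395 CPM in T/NK-like cells (1.19; 5.28% of all genes were at least 2-fold higher in this class), and Cxcr3, the receptor of Cxcl9 and Cxcl10, at 66.3 and 88.4 CPM (0.41). Cx3cr1 was at 167 and 165 CPM in macrophage-like cells. Of the 9 receptor genes, 7 reached 5 CPM in EC-like cells, with 1 at least 2-fold higher, the scavenging receptor Ackr1 (79.1 and 221 CPM, 1.48), and 3 lower, the lymphocyte receptors Cxcr3, Cxcr5 and Cxcr6, beside 1.53% and 3.62% of all genes. Cxcr5 in EC-like cells was 22.9 and 4.17 CPM in libraries with 16.2% and 1.30% B-like cells, and the part of free B-cell RNA in it was not tested. Ackr3, which takes up Cxcl12, was 38.6 and 57.3 CPM in EC-like cells (0.57).

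Genes known to induce these ligands were set beside them. Of 11 cytokines and receptors of this kind, 8 were tested in EC-like cells. Of these, 0 were at least 2-fold higher or lower, beside 1.53% and 3.62% of all genes. Il1b, a strong inducer of Cxcl1, was 98.2 and 194 CPM there (0.98), 281 and 416 CPM in macrophage-like (0.56) and 6315 and 6377 CPM in neutrophil-like cells (0.01). In fibroblast-like cells 2 of 8 were higher, Il1b (1.22) and Il6 (1.04), beside 1.67% of all genes. Macrophage markers in this class were 2852 and 3686 CPM, and their part in the Il1b ratio was not tested. The 8 NF-kB feedback genes, which report activity of the pathway that also acts on Cxcl1 and Cxcl2, gave 0 at least 2-fold higher or lower in any of the EC-, SMC-, fibroblast- or macrophage-like cells, with medians of -0.34, -0.51, -0.04 and 0.14. Nfkbia in EC-like cells was 919.8 and 940.0 CPM (0.03). The 10 early response genes, which tissue digestion can induce, also gave 0 in either direction in these 4 classes, with medians between -0.11 and 0.08. Over all genes of these 4 classes, 0.891% to 1.67% were at least 2-fold higher and 1.34% to 4.67% lower. A count of 0 from 8 or 10 genes lies near these shares. The sheddases of Cxcl16 and fractalkine differed by less than 2-fold in EC-like cells, Adam10 at 179 and 187 CPM (0.06, -0.04 to 0.16) and Adam17 at 72.3 and 85.4 CPM (0.24, 0.09 to 0.39). Of the other CXC ligands, Cxcl14 was at least 2-fold higher in EC-like cells (16.9 and 38.4 CPM, 1.19; 1.53% of all genes), as it was in lymphatic EC-, chondrocyte-, pericyte-, monocyte-, dendritic-, neutrophil- and T/NK-like cells (1.59% to 10.2%), and its ratio was above 0 in all 15 classes. Pf4 was higher in lymphatic EC-, pericyte-, monocyte-, neutrophil-, Schwann- and erythroid-like cells (1.59% to 14.7%). Cxcl17 was higher in lymphatic EC-like cells (10.2%) and Ppbp lower in monocyte-like cells (4.41%). Cxcl13, which attracts B cells, was at least 2-fold lower in fibroblast-like cells (294 and 126 CPM, -1.22, beside 4.67% of all genes). So it was in macrophage-like cells (26.6 and 4.40 CPM, -2.59, beside 1.34%) and, on 3 and 2 UMIs, in Schwann-like cells (10.2%). It was higher in erythroid-like cells (2.82, beside 14.7%), a class in which cluster 33 had 0 cells from WT.

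The genes most like each member were named by Pearson's r of log2(CPM + 1) over 15 classes in 2 libraries, 30 points that share libraries and composition, as a description. Cxcl2 was most like Ccl3 (r = 0.97), Clec4e (0.97) and Clec4d (0.96), and Cxcl3 also had Clec4e among its nearest genes (0.91). Cxcl1 was less closely matched, by Rab31 (0.86), Tnfaip2 (0.86) and Fndc3b (0.85). Cxcl10 was nearest Ifih1 (0.87), a sensor of viral RNA, and Cxcl9 had no gene above 0.75 (Shtn1). Cxcl12 followed Mxra7 (0.93), Cxcl16 followed Ifi207 (0.98) and Cx3cl1 followed the collagen gene Col8a1 (0.90).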

How the data were processed

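The authors deposited 10x matrices of UMI counts per gene and cell, made with Cell Ranger 7.1.0 on mm10 per the submitters' processing notes; the annotation and the handling of introns and strand are not given in the sources used here. The WT library held 39849 barcodes and 92058043 UMIs and the EC-iCD45KO library 30278 barcodes and 88967918 UMIs, with at least 500 UMIs per barcode. Cells needed 300 genes or more and no more than 10% mitochondrial UMIs. Scrublet's own threshold marked 3 of 39716 WT and 0 of 29991 EC-iCD45KO cells, so cells scoring above the top 10% mark were removed in each library (3671 and 2792 cells). Cells were clustered in scanpy 1.11.5 (2000 variable genes, 30 principal components, 20 neighbours, Leiden resolution 1), leaving the 9 chemokines, the gene lists and Ptprc out of the variable genes, and a cluster was named from fixed marker lists where its own list led; the thresholds for naming were set after the data were seen. UMIs were summed per class and library and divided by all UMIs of these cells (CPM). Ratios carry exact conditional binomial intervals, CPM exact Poisson and shares Clopper-Pearson intervals, all at 95% and for counting error only. With 1 library per group no test was made. The members and gene lists were chosen with earlier results of these data known. The genes named are the 9 members, Ptprc, genes of the lists fixed for receptors, other CXC ligands, inducers, feedback, interferon response, sheddases and early response, and the 3 genes most like each member. The calculation of ratios was tested on simulated data. Alternatives covered filters, doublets, resolution, scaling (TMM in edgeR 4.0.16), weighting and the CPM minimum, with others chosen after seeing the data: cells without myeloid markers, barcodes in 1 library only, subtraction of B-like UMIs, and a finer split of the monocyte-like class. A ratio of at least 2-fold was counted as reversed where its sign turned; turns of smaller ratios were counted apart. Promoters came from RefSeq (GRCm38.p6) and gene positions from GENCODE M21.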

Additional observations from a re-analysis of the deposited data

Results flagged for a closer look

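Cxcl9 was singled out because its difference between the libraries ran in opposite directions in 2 classes. The log2 ratio of EC-iCD45KO over WT was 1.02 (0.54 to 1.54) in SMC-like cells, from 42 and 197 UMIs, and -2.67 (-3.03 to -2.32) in monocyte-like cells, from 233 and 96 UMIs. In SMC-like cells of EC-iCD45KO, 84.8% of these UMIs lay in the richest 1% of cells and up to 37 in 1 cell, and the thinned shares of cells with a UMI were 0.976% in WT and 1.41% in EC-iCD45KO. Without cells holding a UMI of a myeloid marker the SMC-like ratio was -2.97, below 0 as in monocyte-like cells. The difference between the classes was not tested, since each group had 1 library.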

How the results depend on the processing

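No paired analysis was possible because only 1 library stood for each group. The looser cell filter left all 99 ratios of the 9 genes with at least 5 CPM in a class within their counting intervals, whereas 34 of 99 left them with the mean of single-cell CPM, 21 of 98 with clusters weighted equally, 11 of 99 at Leiden resolution 2, 9 of 99 with the stricter filter, 7 of 99 with TMM scaling, 3 of 99 without doublet removal and 1 of 99 without mitochondrial, ribosomal and haemoglobin genes. In macrophage-like cells 2 genes (Cxcl1 and Cxcl3) rather than 1 were at least 2-fold higher with the mean of single-cell CPM, with clusters weighted equally, without those genes, and with no CPM minimum. In fibroblast-like cells 4 were higher with the mean of single-cell CPM, where 3.19% of all genes were higher and 5.73% lower, and with clusters weighted equally 1 was higher (Cxcl2) and 1 lower (Cxcl9). With no CPM minimum 1 gene, Cxcl5, was lower in EC-like cells. Thinned to 2000 rather than 1000 UMIs, a Cxcl2 UMI was found in 25.7% of EC-like cells in WT and 39.2% in EC-iCD45KO.

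Of the alternatives chosen after seeing the data, removing cells with a UMI of a macrophage, monocyte or neutrophil marker left only 7 of 30 ratios within their intervals. In EC-like cells 1 gene stayed at least 2-fold higher (Cxcl2) and 1 was lower (Cxcl10), in SMC-like cells 2 were higher (Cxcl1 and Cxcl16, no longer Cxcl2, at 0.78) and 1 was lower (Cxcl9), and in fibroblast-like cells 4 were higher (Cxcl2, Cxcl3, Cxcl16 and Cx3cl1, the second with 3 and the last with 7 and 8 UMIs). All genes were then 3.23% higher and 7.85% lower in EC-like, 7.26% and 14.8% in SMC-like and 14.4% and 16.95% in fibroblast-like cells. Among ratios of at least 2-fold the sign turned for Cxcl1 in EC-like cells (-0.28) and Cxcl9 in SMC-like cells (-2.97). Smaller ratios whose interval excluded 0 turned for Cxcl16 in EC-like (-0.30), Cxcl12 in SMC-like (0.28) and fibroblast-like (0.10) and Cxcl1 in pericyte-like cells (-1.28); Cx3cl1 in fibroblast-like cells, within counting error before, was then 1.40. Within the 2 clusters of the monocyte-like class at Leiden resolution 2, the Cxcl10 ratio turned from -2.20 to 0.13 and 0.57, Cxcl2 turned to -0.09 in cluster 34 and Cxcl16 from -0.17 to 0.11 in cluster 8. With the mean of single-cell CPM, the sign turned for 3 of 71 ratios whose interval excluded 0, Cxcl10 in EC-like (0.15) and lymphatic EC-like (-0.36) and Cx3cl1 in SMC-like cells (0.02); the stricter filter turned Cxcl3 in neutrophil-like cells (0.0086) and Leiden resolution 2 Cxcl12 in chondrocyte-like cells (-0.0011). The causes were not tested. Removing the barcodes found in both libraries moved 2 of 99 ratios, and subtracting B-like UMIs per cell moved 4 of 87, while shifting the median log2 ratio of all genes to 0.24 in EC-like, 0.34 in SMC-like and fibroblast-like and -0.30 in macrophage-like cells and raising the genes at least 2-fold higher and lower in EC-like cells from 1.53% and 3.62% to 14.3% and 9.10%. Splits of all genes also shifted with the mean of single-cell CPM in macrophage-like cells, from 0.891% higher and 1.34% lower to 2.19% and 1.73%, and with clusters weighted equally in fibroblast-like cells, from 1.67% and 4.67% to 2.45% and 3.97%. Depth limits Cxcl3 and Cxcl5 most, with 17 and 18 UMIs in WT EC-like cells, and with 1 library per group a difference between mice and one between groups cannot be told apart.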

Other observations

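Among cells that stayed unnamed, cluster 20, led by Vcam1, Slurp1 and Timp1, had the highest fractalkine level of all clusters in both libraries, with Cx3cl1 at 109 CPM in WT (99.5 to 119.8) and 94.2 CPM in EC-iCD45KO (84.5 to 105), a log2 ratio of -0.21 (-0.42 to -0.01). Cluster 2, which also has Slurp1 and Vcam1 among its leading genes, stood at 38.0 and 70.9 CPM. Cxcl1 in cluster 20 was 126 and 356 CPM, and Cxcl12 was 899.7 and 649 CPM (-0.47).

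Il17a, a cytokine that raises Cxcl1 in stromal cells, was 53.4 CPM in T/NK-like cells of WT and 207 CPM in those of EC-iCD45KO (1.96). Cluster 25, led by the gamma-delta T-cell gene Trdc, held 503 of 3825 T/NK-like cells in WT and 139 of 424 in EC-iCD45KO. Schwann-like cells had Cxcl2 at 411 and 1833 CPM (2.16, 1.89 to 2.43), while the macrophage markers in them summed to 3892 and 8075 CPM; their part in the result was not tested.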
